A study of Homo sapiens with 8 samples.

Results

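Replication-dependent histone genes encode the bulk of the H1, H2A, H2B, H3 and H4 proteins that package newly copied DNA. They were taken from the expression table by symbol, as every entry named H1-1 to H1-6 or by an H2AC, H2BC, H3C or H4C number. The rule found 62 entries with 66 symbols among 47591 entries in all. The series asked what changed in the human neuroblastoma line SH-SY5Y when the gene for the pre-mRNA splicing factor PRPF40B was edited with CRISPR/Cas9. The 3 lines were sequenced as polyadenylated RNA. G2 (3 libraries) carried a guide against PRPF40B, SCR (3 libraries) carried a scrambled control guide, and WT (2 libraries) was the unmodified line. G2 was selected with puromycin and taken through limiting dilution to individual colonies. SCR was included as its negative control, and whether it was also taken to colonies is not stated. Both were kept in puromycin, whereas no such handling is given for WT. The lines therefore differ in colony and handling as well as in the guide, and the edit and the colony cannot be told apart.

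Most human mRNAs end in a poly(A) tail. Replication-dependent histone mRNAs usually do not. Their precursors are cleaved a few bases after a short stem-loop, which is bound by the stem-loop binding protein SLBP, and the genes have no introns in the coding part. The mRNAs accumulate in S phase, when DNA is copied, and are degraded when copying stops. Many of these genes also have a polyadenylation site further downstream, and the longer polyadenylated forms are known from differentiated and non-dividing cells. A library of polyadenylated RNA therefore samples these genes only in part, and the values below are of the RNA that such a library captured.

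The 16-base histone stem-loop lay 22 to 67 bases after the stop codon in all 66 symbols on hg38 with GENCODE 44. It took 10 different forms. The form of H1-2 and H2AC6 was found in 38 genes, that of H2BC12 in 9, that of H4C8 in 9 and that of H4C14 in 4, while each of the remaining 6 forms was found in 1 gene. The stem-loops of the members whose values are described most fully are shown here, from the genome sequence, with the stem-loop in capitals and 5 bases on either side. The coordinates are those of the capitals.
H2BC12, chr6:27146366-27146381, minus strand: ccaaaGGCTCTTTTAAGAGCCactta
H2BC5, chr6:26158587-26158602, plus strand: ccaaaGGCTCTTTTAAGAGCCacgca
H2BC4, chr6:26123472-26123487, minus strand: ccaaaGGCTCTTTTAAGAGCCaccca
H2AC6, chr6:26124669-26124684, plus strand: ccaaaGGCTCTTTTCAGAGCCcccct
H1-2, chr6:26055744-26055759, minus strand: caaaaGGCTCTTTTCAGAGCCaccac
H2AC15, chr6:27837885-27837900, minus strand: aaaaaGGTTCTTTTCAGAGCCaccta
H2AC11, chr6:27133515-27133530, plus strand: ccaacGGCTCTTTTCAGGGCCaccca
H2AC20, chr1:149887391-149887406, plus strand: ccaaaGGCTCTTTTTAGAGCCaccca
H4C14, chr1:149833032-149833047, plus strand: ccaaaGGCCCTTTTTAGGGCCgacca
H4C8, chr6:26285131-26285146, minus strand: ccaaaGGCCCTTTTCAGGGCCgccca
H2BC5 and H2BC4 had the same stem-loop, and their values moved in different directions between SCR and WT. Whether the form of the stem-loop goes with the direction was not tested.

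The entries differed much more in where the annotation placed their 3′ ends. In 39 entries, called compact here, the annotated gene stopped within 198 bases of the stem-loop. In 22 entries, called long here, it ran at least 731 and up to 29196 bases further. The remaining entry, H2AC7 // H3C4, joins neighbouring genes of different classes. The split at 500 bases was made after the values had been seen, so it serves as description only. GENCODE 44 listed a transcript ending over 100 bases past the stem-loop for 11 of the 22 long entries and for 2 of the 39 compact ones. H2BC12 shows the disagreement between annotations, since its entry covered chr6:27138294-27146858, 8072 bases past the stem-loop, whereas its only GENCODE transcript ended 5 bases past it. Reads from anywhere in the exons of a long entry were counted to it, and they cannot be placed before or after the stem-loop from this table.

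By class, the table held 6 H1, 14 H2A, 17 H2B, 11 H3 and 13 H4 entries and the joined H2A/H3 entry. By position, 8 lay on chromosome 1 at 1q21, 33 in the telomeric part of the 6p22 cluster and 21 in its centromeric part. The values are counts divided by a size factor for each library, called normalized counts here. Of the 62 entries, 42 averaged 10 normalized counts or more across libraries and entered the tests, 20 of them averaging 100 or more. The 20 entries that did not enter include H1-1, H2AC1, H2BC1, H4C6 and H4C7, which were at 0 in every library. In 12 entries no library exceeded the floor of about 3 fragments (9 recovered counts). H1-3, H1-4, H1-5 and H1-6 were among the entries left out, so H1-2 was the only H1 gene tested. All 22 long entries entered the tests, against 19 of 39 compact ones.

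Counts were concentrated in few entries. H2BC12, an H2B gene, held 33.8% of all histone member counts, the 5 highest entries (H2BC12, H1-2, H2BC5, H2AC6 and H4C14 // H4C15) 66.9% and the 12 highest 87.0%. The 22 long entries together held 79.6%. These are shares of counts and not levels, because counts were not scaled to the length of the counted exons. The members as a whole took 0.0226% to 0.0377% of the normalized counts of a library.

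Reads of near-identical copies limit some entries. Of the 66 symbols, 43 shared no stretch of 75 bases, the read length, with GENCODE transcripts of another histone entry, and 6 shared more than 50% of theirs (H4C11, H4C12, H2AC13, H2AC14, H2AC17 and H3C13). H2BC12 shared 39.0% of its stretches. The spans of H4C14 // H4C15, H2AC18 // H2AC19 and H3C14 // H3C15 hold only H4C14, H2AC19 and H3C15. Stretches that these share with the other gene in the name were not counted as shared. H4C9 lies wholly inside the H2BC12 entry on the opposite strand over 1231 bases, and the H2AC15 and H2BC15 entries overlap on opposite strands in 616 bases. The strand setting of the counting and its handling of reads with several matches are not given in the sources used here, so values of these entries are uncertain.

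Some facts of the libraries touch every comparison. Recovered totals ran from 59804395 to 81080747 counts. Ribosomal RNA took 0.384% to 0.587% of the counts in the G2 and SCR libraries and 4.96% and 4.75% in the WT libraries. RNAs without poly(A) tails, such as RN7SL1 and RN7SK, summed to 3218 to 8518 normalized counts in G2, 1806 to 2786 in SCR and 9757 and 2894 in WT, so G2 replicate 3 and WT replicate 2 stood below their group. PRPF40B itself was at 840, 841 and 918 in G2, 1686, 1672 and 1669 in SCR and 1972 and 1668 in WT. Of 11 adrenergic neuroblastoma markers, 9 were lower in G2 than in SCR, and TH was near 0 in every line (means of 1.88 to 16.9). Of 12 markers of other cell types 8 were tested, of which 4 were higher in G2 than in SCR (THY1, LUM and CD68 among them) and EPCAM was lower, while SOX10 was at 0 and PTPRC and TWIST2 were near 0. Calls by limma needed 1.5 fold or more together with p of 0.05 or less before adjustment, the thresholds of the study. Fold changes are on the scale of log2(normalized count + 1), which understates changes of low genes. G2/SCR, G2/WT and SCR/WT share libraries in pairs, so their values are given side by side.

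Summed over the 62 entries, histone counts were highest in SCR. The sums were 15851, 16720 and 17975 normalized counts in the G2 libraries, 23112, 21947 and 21854 in SCR and 18689 and 16116 in WT. Every SCR library lay above every G2 and WT library, and G2 and WT overlapped. The G2 mean was 0.755 times the SCR mean and 0.968 times the WT mean, and the SCR mean was 1.28 times the WT mean. When the libraries were instead scaled to the same total, which moved the median of all genes by 0.28 on the log2 scale in SCR/WT, by 0.19 in G2/WT and by -0.09 in G2/SCR, these ratios became 0.709, 1.10 and 1.56. The direction of G2/WT thus turned with the scaling and the other two did not. Without H2BC12 the deposited values gave 0.787, 0.952 and 1.21. In bulk RNA, fewer cells that express these genes and less of their RNA per cell cannot be told apart.

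The classes followed this order to different degrees. H2B summed to 8889, 9103 and 10048 in G2, 13771, 12815 and 12903 in SCR and 9640 and 8628 in WT, a G2/SCR ratio of 0.710. The ratio was 0.768 for H2A, 0.827 for H3 and 0.829 for H4, and in these 4 classes every SCR library lay above every G2 library. H1, which is almost all H1-2, had a G2/SCR ratio of 0.918 and overlapping libraries. In SCR/WT the ratio was 1.44 for H2B, 1.40 for H2A, 1.40 for H4 and 1.21 for H3, but 0.605 for H1. G2 and WT overlapped in H2A, H2B and H3, while in H4 every G2 library was above both WT libraries. By position the G2/SCR ratios were close to each other, 0.756 at 1q21, 0.779 in the telomeric and 0.737 in the centromeric part of 6p22. The SCR/WT ratios were 1.37, 1.14 and 1.38.

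**Figure D1:**
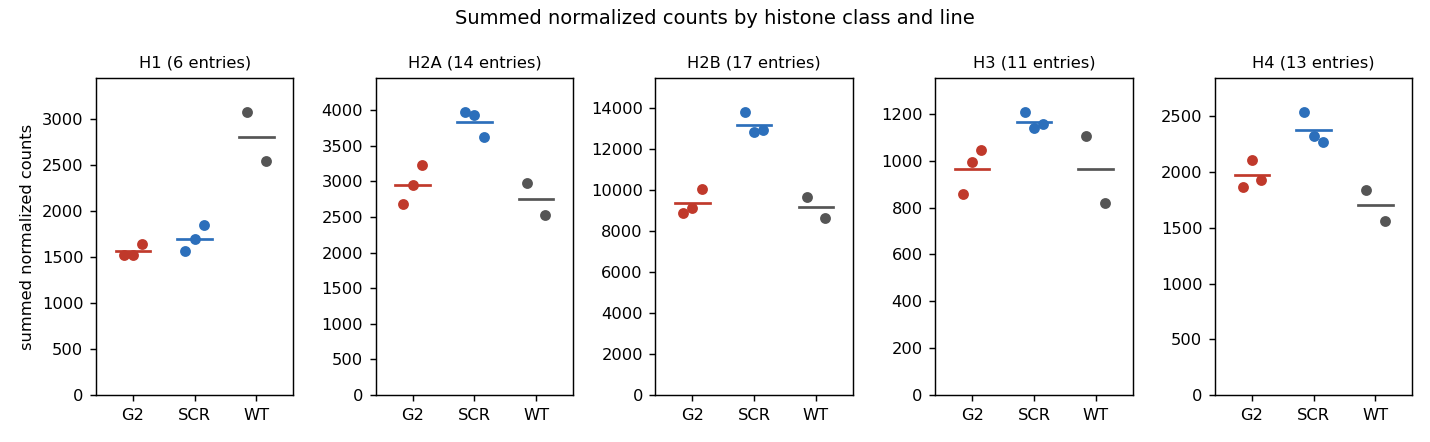
Summed normalized counts of the entries of each histone class (vertical axis, from 0) in the G2, SCR and WT libraries, with 1 point per library and a bar at the line's mean. H2A, H2B, H3 and H4 are higher in all 3 SCR libraries than in all 3 G2 libraries, while H1 is highest in the 2 WT libraries.

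G2/SCR compares the edited line with its control-guide line. Of the 42 tested members 6 were called, or 14.3%, where 26.9% of all 18947 genes tested were. Lower in G2 were 5 (H2BC5, H2AC15, H4C8, H3C13 and H2BC7) and higher was 1 (H3C14 // H3C15). With p adjusted by Benjamini-Hochberg at 0.05 (limma), H2BC5 and H2AC15 were called, against 25% of all genes. The share of members called was thus not above that of genes at large, and most of their differences were below the fold threshold. The median log2 fold change was -0.38 over the 42 members and -0.01 over all genes, and 33 members lay below 0. In 15 members every G2 library was below every SCR library (35.7%, against 30.1% of all genes), and in 2 every G2 library was above (4.76%, against 31.7%).

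H2BC5, an H2B gene in the telomeric part of 6p22, had 1303, 1223 and 1543 normalized counts in G2, 2275, 2216 and 2184 in SCR and 1170 and 1181 in WT. Its SCR libraries were the high ones, and G2 lay just above WT without overlap. It fell by 0.72 on the log2 scale in G2/SCR (SE 0.08, limma adjusted p = 1.71e-05) and rose by 0.92 in SCR/WT (adjusted p = 2.07e-05). H2AC15 had 91.3, 77.7 and 113 in G2, 209, 237 and 225 in SCR and 88.2 and 106 in WT. G2 and WT overlapped, and every SCR library was far above both. H2AC15 differed by -1.26 on the log2 scale in G2/SCR (SE 0.17, adjusted p = 6.28e-05) and 1.20 in SCR/WT (adjusted p = 0.000505). Its partner on the opposite strand, H2BC15, was at -0.41 on the same scale and was not called. H2BC5 and H2AC15 were the only members of the 6 that were called with each of the 8 libraries left out in turn.

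The 4 other called members had few counts or a wide spread. H4C8 had 153, 72.3 and 50.5 in G2 and 148, 118 and 162 in SCR, so G2 replicate 1 lay among the SCR libraries, and its call was lost without G2 replicate 2, G2 replicate 3, SCR replicate 1 or SCR replicate 3. H3C13 had 14.1, 26.3 and 22.6 in G2 against 45.9, 28.2 and 43.1 in SCR, and H2BC7 had 8.47, 14.2 and 13.97 against 38.8, 15.9 and 25.7. Both calls were lost without G2 replicate 1, SCR replicate 1 or SCR replicate 3, and their log2 fold changes then came as close to 0 as -0.63 and -0.72. H3C14 // H3C15 is named for a pair of H3 genes at 1q21, but its span holds only H3C15. It had 22.6, 30.7 and 13.97 in G2 against 8.16, 10.3 and 9.82 in SCR. Its call was lost without any 1 of 5 libraries (G2 replicates 1 and 2 and each SCR replicate).

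The entries with the most counts differed by less than 1.5 fold but with little spread. H2BC12 had 5203, 5457 and 5968 normalized counts in G2, 8515, 7533 and 7786 in SCR and 5934 and 5114 in WT. Every SCR library lay above the other lines, and G2 and WT overlapped. H2BC12 was 1.43-fold lower in G2 than in SCR (log2 fold change -0.52, SE 0.07, limma adjusted p = 0.000107), below the threshold on fold change. H2BC21 at 1q21 was at 982, 1036 and 1116 in G2, 1383, 1473 and 1604 in SCR and 821 and 781 in WT, 1.42-fold lower in G2 than in SCR (adjusted p = 0.000222). H2AC6 was at 1192, 1360 and 1521 in G2, 1858, 1925 and 1723 in SCR and 1050 and 936 in WT, and H4C14 // H4C15 at 1028, 1333 and 1241, 1664, 1635 and 1533, and 1031 and 946. In both of these each SCR library was above each G2 library, by 1.36 and 1.35 fold in the means on the log scale.

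The H1 gene with the most counts did not follow these. H1-2, a linker histone that binds between nucleosomes, had 1470, 1510 and 1628 normalized counts in G2, 1547, 1658 and 1829 in SCR and 3041 and 2538 in WT. G2 and SCR overlapped (log2 fold change -0.13, SE 0.09, adjusted p = 0.252), and both lay well below WT. H2BC4 and H2BC9 had positive values in G2/SCR, of 0.32 (adjusted p = 0.0984) and 0.44 (adjusted p = 0.0417), neither called. H4C11 and H4C12 had values of 0.25 and 0.18, not called, and share 91.4% and 92.0% of their 75-base stretches with other histone transcripts. All 11 tested H2A members had a log2 fold change below 0 in G2/SCR under each scaling tried, from -0.04 in H2AC11 to -1.26 in H2AC15, though only H2AC15 was called. Without G2 replicate 1, however, 2 of them lay above 0, and without SCR replicate 1 this was so for 1 of the 10 still tested. The median was -0.55 for H2A, -0.41 for H2B, -0.41 for H3 and -0.06 for H4. The H2B median came to -0.27 without G2 replicate 2, and that of H3 to -0.26 without G2 replicate 2 or SCR replicate 2. The H4 median ranged from -0.36 (without G2 replicate 2) to 0.11 (without G2 replicate 1) and was also above 0 without SCR replicate 1 or SCR replicate 3, so its sign rested on single libraries.

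**Figure D2:**
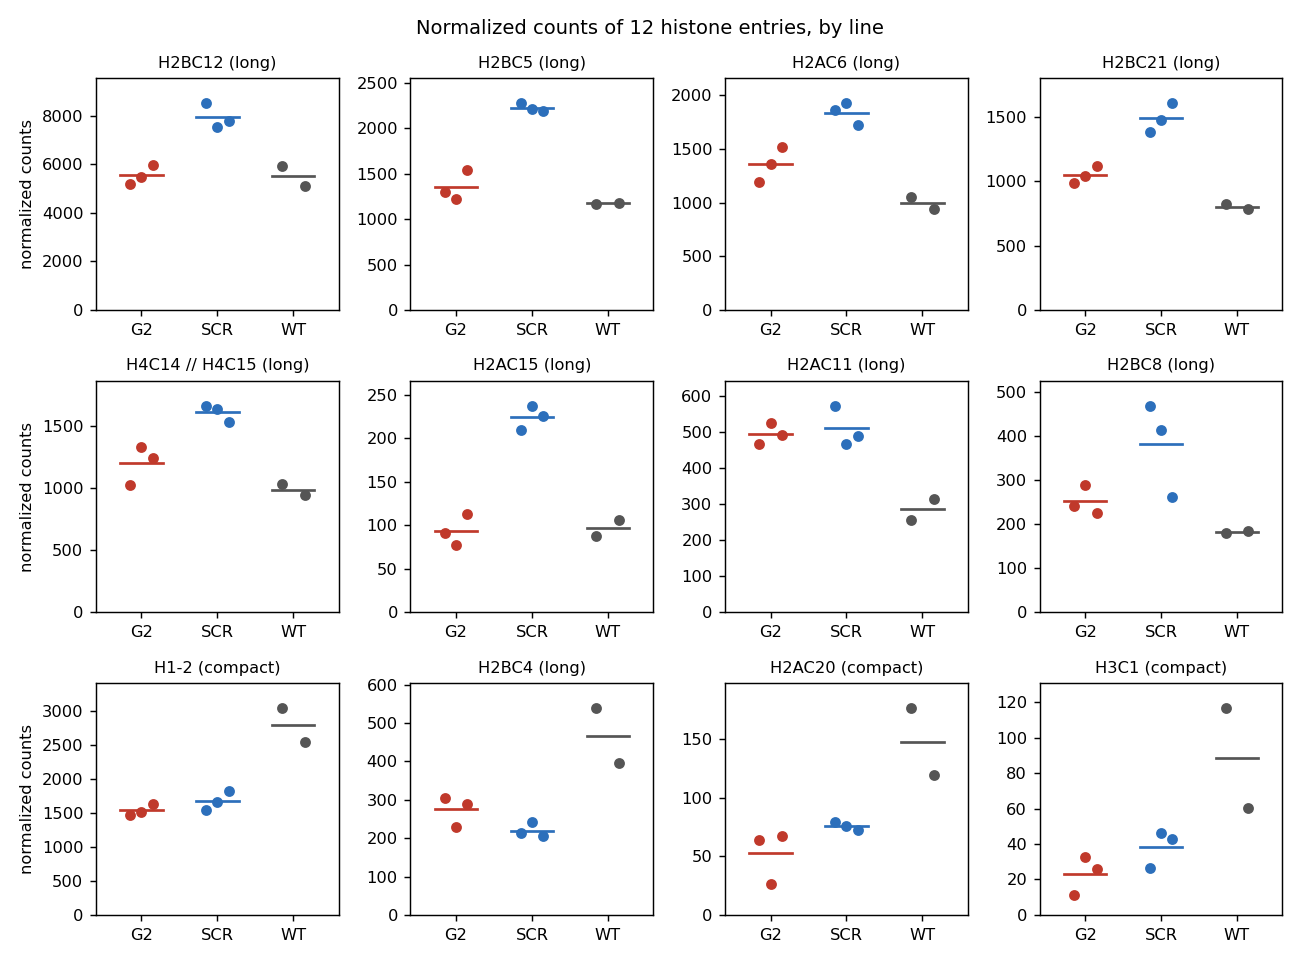
Normalized counts (vertical axes, from 0) of 12 histone entries in the G2, SCR and WT libraries, with 1 point per library, a bar at each line's mean and the type of annotated 3′ end in parentheses. The 8 entries from H2BC12 to H2BC8 have their highest mean in SCR, and the 4 in the bottom row, H1-2, H2BC4, H2AC20 and H3C1, have theirs in WT.

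SCR/WT compares lines that both lack the guide against PRPF40B. Here 18 of 42 members were called, or 42.9%, against 16.3% of all genes. Higher in SCR were 13 (31%, against 10.7% of all genes) and lower were 5 (11.9%, against 5.63%). By adjusted p (limma, 0.05), 13 were higher and 3 lower, against 8.95% and 4.83% of all genes. Every SCR library was above every WT library in 17 members (40.5%, against 27.5% of all genes) and below in 6 (14.3%, against 27.8%). With the libraries scaled to the same total the calls were 18 higher and 2 lower, and 17 and 2 when ribosomal RNA and RNAs without poly(A) were left out of the total. Of the 18 calls, 13 held with each library left out in turn, 11 higher and 2 lower, and 15 held under all 3 other scalings. The median log2 fold change of the members was 0.22 and became -0.10 without WT replicate 2, so its sign rested on that library.

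The members higher in SCR than in WT were H2BC5, H2AC6, H4C14 // H4C15, H2BC21, H2AC11, H2BC8, H3C10, H3C8, H2AC15, H4C8, H4C9, H2AC13 and H2AC17, with log2 fold changes from 0.67 to 1.61. H4C8 had the highest, with 148, 118 and 162 in SCR against 58.4 and 35.7 in WT (3.06 fold, SE 0.39 on the log2 scale, limma adjusted p = 0.0069). H2AC6 was 1.85-fold higher (adjusted p = 6.16e-05) and H2BC21 likewise 1.85-fold (adjusted p = 2.03e-05). H2BC8 had 469, 415 and 263 in SCR against 180 and 186 in WT, a log2 fold change of 1.02 (adjusted p = 0.00292). H2AC11, unlike most others, was about as high in G2 (466, 526 and 492) as in SCR (573, 467 and 489), and both were above WT (257 and 315). H2BC12 was 1.44-fold higher in SCR (adjusted p = 0.000527), again short of the fold threshold. The call of H4C9 was lost without SCR replicate 1, and that of H2AC17 without SCR replicate 2 or WT replicate 2.

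The members lower in SCR than in WT were H1-2, H2BC4, H2AC20, H3C1 and H3C3. H1-2 was 1.66-fold lower (limma adjusted p = 0.000147), but under the scalings to a total its log2 fold change of -0.73 came as close to 0 as -0.45 and was not called. H2BC4 had 306, 230 and 290 in G2, 212, 241 and 206 in SCR and 539 and 396 in WT, and was 2.10-fold lower in SCR than in WT (adjusted p = 0.000438), a call that held under every scaling and with every library left out. H2AC20 had 64.0, 26.3 and 67.7 in G2, 79.6, 76.0 and 72.6 in SCR and 176 and 119 in WT. H3C1 had 11.3, 32.8 and 25.8 in G2, 26.5, 46.0 and 43.1 in SCR and 117 and 60.6 in WT. H3C3 had 27.3, 14.2 and 23.6 in G2, 41.8, 33.8 and 20.4 in SCR and 91.9 and 59.6 in WT. In all 3 genes both WT libraries were above every other library, and WT replicate 1 was above WT replicate 2. Without WT replicate 1 the calls of H2AC20, H3C1 and H3C3 in SCR/WT were lost. H2AC20 also lost its call without SCR replicate 3, and H3C1 without SCR replicate 1, and both lost it under the scalings to a total.

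G2/WT compares the edited with the unmodified line. It gave 8 calls in 42 members, or 19%, against 29.9% of all genes. Higher in G2 were H2AC11 (log2 fold change 0.79, limma adjusted p = 0.00023) and H3C8 (0.59, adjusted p = 0.0251). Lower in G2 were H1-2 (-0.86), H2BC4 (-0.76), H2AC20 (-1.56), H3C1 (-1.93), H3C3 (-1.77) and H2BC7 (-1.07), of which all but H2BC7 passed the adjusted threshold. The split of 2 higher and 6 lower became 7 and 4 with the libraries scaled to the same total, 4 and 5 when ribosomal RNA and RNAs without poly(A) were left out of it, and 3 and 5 with TMM factors. The call of H2BC4 was lost without WT replicate 1 and under the same total, that of H3C8 without G2 replicate 2, G2 replicate 3 or WT replicate 2, and that of H2BC7 without any 1 of 5 libraries (G2 replicates 1 and 3, SCR replicate 3 and both WT replicates) and under all 3 other scalings. The median log2 fold change was 0.04 over the members and 0.005 over all genes. The median of the members became -0.10 without WT replicate 2 and 0.19 without WT replicate 1, and was 0.22 under the same total. Every G2 library was above every WT library in 8 members (19%, against 33.3% of all genes) and below in 11 (26.2%, against 32.1%).

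Called in none of the 3 comparisons were 21 of the 42 tested members, H2BC12 among them. H2AC18 // H2AC19 is named for a pair of H2A genes at 1q21, but its span holds only H2AC19. It had 631, 666 and 729 in G2, 844, 755 and 790 in SCR and 1057 and 828 in WT. Its order was G2 lowest, with every SCR library above every G2 library and WT replicate 2 among the SCR libraries. H3C6, the H3 entry with the most counts, had 471, 528 and 555 in G2, 630, 628 and 607 in SCR and 555 and 389 in WT, so SCR was above both other lines, by 1.20 fold over G2 on the log scale. H2BC11 had 248, 313 and 309 in G2, 272, 391 and 280 in SCR and 346 and 402 in WT, so SCR overlapped both other lines and both WT libraries were above every G2 library. H4C11, H4C12, H2BC9, H2BC18 and H2AC8 lay between means of 110.5 and 263. The remaining 12 (H2BC15, H2AC7 // H3C4, H4C5, H2AC16, H2AC14, H2BC6, H2BC13, H3C12, H4C3, H3C2, H2BC17 and H2AC12) had means under 100. The 21 lay between -0.71 and 0.81 on the log2 scale for G2/SCR, between -1.52 and 0.85 for G2/WT and between -1.001 and 0.73 for SCR/WT.

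The annotated 3′ end went with the direction in SCR/WT. The 22 long entries summed to 12640, 13458 and 14498 normalized counts in G2, 19428, 18304 and 18151 in SCR and 13031 and 11702 in WT, with every SCR library above every other one. The 39 compact entries summed to 3180, 3218 and 3395 in G2, 3620, 3603 and 3644 in SCR and 5601 and 4381 in WT, with both WT libraries above every other one. The SCR/WT ratio was thus 1.51 for the long and 0.726 for the compact entries, and under the same total 1.83 and 0.883. H1-2 carries much of the compact sum, and without it the compact ratio was 0.883 as deposited and 1.08 under the same total, so its direction turned.

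Entry by entry, 11 long entries were higher in SCR than in WT and 2 lower (H2BC4 and H3C3), or 50% and 9.09% of the 22, with a median log2 fold change of 0.69. Of the 19 tested compact entries 2 were higher (H2AC13 and H2AC17) and 3 lower (H1-2, H2AC20 and H3C1), or 10.5% and 15.8%, with a median of -0.16. Of all genes 10.7% were higher and 5.63% lower, so the share of compact entries higher in SCR was near that of genes at large. The median of the long entries stayed between 0.61 and 0.71 with any library left out and was 0.96 under the same total. That of the compact entries ranged from -0.47 to -0.04 with a library left out and was 0.11 under the same total. The distance between both medians was therefore present under each scaling, whereas the sign of the compact median was not. The long entries also had more counts, with 15 of 22 at a mean of at least 100 against 5 of 39 compact entries. Ribosomal RNA and RNAs without poly(A) tails were higher in WT than in SCR, the latter only narrowly in WT replicate 2 (2894 against 2786 in SCR replicate 2). Their part in the result was not tested.

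In G2/SCR the types differed less. The long entries had a ratio of the sums of 0.726, a median log2 fold change of -0.42 and 19 of 22 entries below 0, with 1 called higher and 4 lower (4.55% and 18.2%, against 15.1% and 11.8% of all genes). The compact ones had a ratio of 0.901, a median of -0.36 and 13 of 19 below 0, with H3C13 (5.26%) called lower. Here H1-2 weighs little on the compact ratio, which was 0.889 without it.

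**Figure D3:**
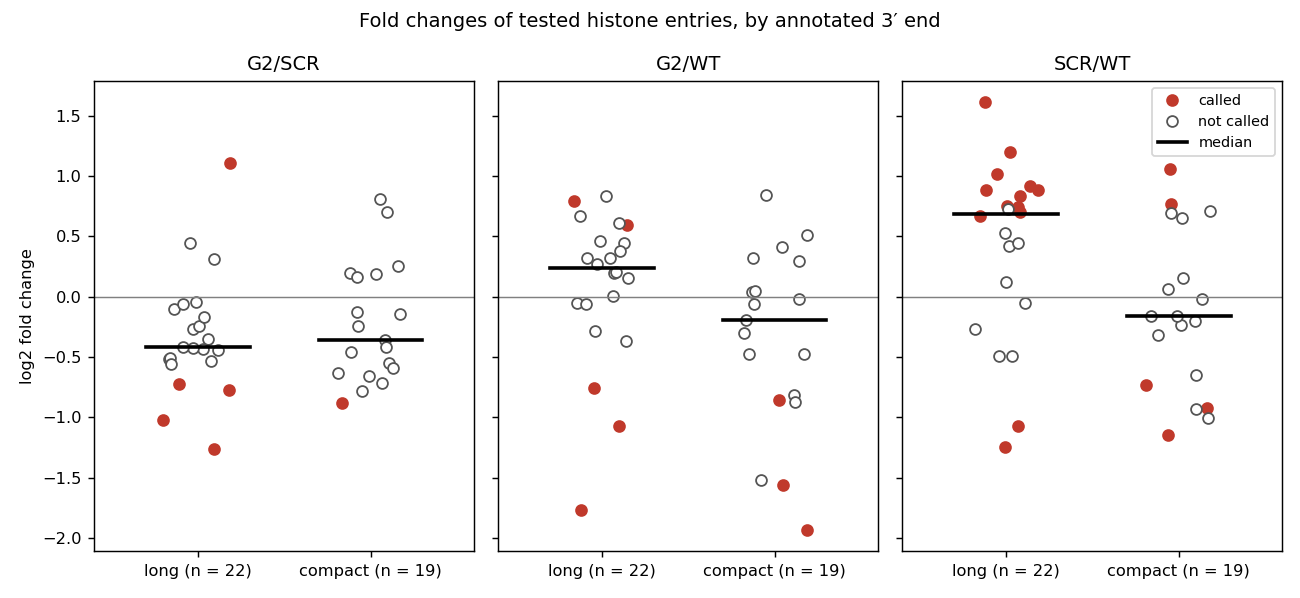
Log2 fold change (vertical axis) of each tested entry in G2/SCR, G2/WT and SCR/WT, with long entries (22) and compact entries (19) side by side. Filled points passed both thresholds, open points did not, and the bar is the median. In SCR/WT the median is 0.69 for long and -0.16 for compact entries, while in G2/SCR both medians lie near -0.4 (-0.42 and -0.36).

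Many H2A and H2B genes sit head to head and share the DNA between their starts. There were 11 such pairs, with 170 to 251 bases between the GENCODE starts, and in 9 of them both genes were tested. In SCR/WT the fold changes of the partners had opposite signs in 7 of the 9 pairs, in G2/WT also in 7 and in G2/SCR in 2. For H2AC7 the value is that of the joined entry H2AC7 // H3C4. The count for G2/WT was 8 under the same total and 4 of the 8 pairs still tested without WT replicate 1. The count for SCR/WT depended on the scaling, since under the same total 4 pairs had opposite signs (H2AC20 and H2BC21, H2AC6 and H2BC4, H2AC12 and H2BC12, and H2AC13 and H2BC13), and 5 with ribosomal RNA and RNAs without poly(A) left out of it. It was 5 of 9 without SCR replicate 2, and 5 and 4 of the 8 pairs still tested without SCR replicate 1 or WT replicate 1. In the pair of H2AC6 and H2BC4, H2AC6 was higher in SCR than in WT (0.89) and H2BC4 lower (-1.07), both called. The ratio of H2AC6 to H2BC4 within a library does not depend on scaling. It was 3.90, 5.91 and 5.24 in G2, 8.75, 7.98 and 8.35 in SCR and 1.95 and 2.36 in WT, so the 3 lines did not overlap. In the pair at 1q21, H2BC21 was higher (0.89) and H2AC20 lower (-0.92) in SCR. The ratio of H2BC21 to H2AC20 was 15.4, 39.4 and 16.5 in G2, 17.4, 19.4 and 22.1 in SCR and 4.65 and 6.56 in WT. Both WT libraries lay below the others, while G2 and SCR overlapped. In the first pair both entries are long, so the difference between partners is not always one between a long and a compact entry. H2AC11 (0.83, called) and H2BC11 (-0.27, not called) differed in sign as deposited but not under the same total, where H2BC11 was at 0.01. H2AC15 (1.20) and H2BC15 (0.13) were both above 0.

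The shared stretch of the H2AC6 and H2BC4 pair is shown as the RefSeq promoter window of H2BC4, from 250 bases before to 50 bases after its start, at chr6:26123877-26124176 of GRCh38.p14 on the minus strand. The octamer ATTTGCAT, the site by which OCT1 is known to act on H2B genes, is in capitals.
H2BC4 promoter: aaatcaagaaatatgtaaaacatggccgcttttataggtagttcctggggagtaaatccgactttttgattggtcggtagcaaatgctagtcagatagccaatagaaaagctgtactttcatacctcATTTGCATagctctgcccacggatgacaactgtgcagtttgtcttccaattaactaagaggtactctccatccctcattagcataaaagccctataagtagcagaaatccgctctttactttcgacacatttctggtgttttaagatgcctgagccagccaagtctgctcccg
The window of H2AC6 overlaps it from the other side and holds the same octamer. RefSeq windows were found for 61 of the 66 symbols, 65 windows in all, because some genes have several starts. ATTTGCAT, on either strand, was in 15 of 19 H2B and 11 of 15 H2A windows, in 1 of 13 H3 windows and in none of the H1 and H4 windows, against 1.77% of all 35116 windows. The H3 window with the octamer is one of the RefSeq windows of H3C4, with the same coordinates as that of H2AC7, and the other window of H3C4 lacks the octamer. Windows of head-to-head partners overlap, so some of these matches are the same bases counted from both sides. CCAAT was in 86.2% of the member windows and 34.6% of all, and TATAAA in 67.7% and 11.5%. Among H4 windows CCAAT was in 3 of 12, and in each of the other classes it was in every window. A match says only that the letters are present.

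The machinery that makes and degrades these mRNAs was described by lists of genes. Of 14 genes for stem-loop binding and 3′ cleavage, none was called in G2/SCR at a fold of 1.5 (limma, unadjusted or adjusted). In WT comparisons 2 were lower in G2 and 4 lower in SCR. SLBP had 3159, 2818 and 3088 in G2, 2817, 2789 and 2795 in SCR and 4507 and 4460 in WT, at 0.11 for G2/SCR and -0.68 for SCR/WT as log2 fold changes, the latter called. That call is for the deposited scaling. The same total raised the median of all genes in SCR/WT by 0.28, more than the distance of SLBP from the fold threshold. SYMPK, a scaffold of the cleavage complex, was -0.43 in G2/SCR, CSTF2 -0.32, CASP8AP2 0.31 and LSM11, a U7 snRNP protein, 0.12, none of them called. Of 15 genes for transcription of histone genes and choice of the 3′ end, 1 was called in G2/SCR. This was CCNE2, a cyclin E, with 1411, 1342 and 1307 in G2, 623, 668 and 634 in SCR and 1259 and 1452 in WT (log2 fold change 1.08). CCNE2 was therefore lowest in the line in which histone counts were highest. NPAT, the co-activator at histone gene clusters, was at -0.26 in G2/SCR, HINFP, a factor at H4 promoters, at -0.48 and CDK2 at 0.45, none called. Of 9 decay genes none was called in G2/SCR or SCR/WT and XRN1 was higher in G2/WT. ERI1, an exonuclease that acts on the stem-loop, was at 0.24 in G2/SCR. Of 15 histone chaperone genes none was called in G2/SCR, with HAT1, RBBP7 and ASF1A at 0.39, 0.37 and 0.38, while 4 were lower in G2/WT and 6 in SCR/WT. The counts of these lists against WT are for the deposited scaling. The same total raised the median of all genes by 0.19 in G2/WT and by 0.28 in SCR/WT, so lower calls near the threshold may not hold under it.

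Histone genes expressed outside S phase took another course than the long entries. Of 14 replication-independent genes 11 were tested and none was called in G2/SCR. In SCR/WT 5 were lower and the median was -0.54, whereas the long entries had a median of 0.69. These are values as deposited. The same total raised the median of all genes in SCR/WT by 0.28, so calls near the threshold may not hold under it. The median of all members was 0.22, with a sign that rested on WT replicate 2, and that of the compact entries was -0.16. H2AZ1, a variant H2A, was at 55566, 53467 and 52751 in G2, 44194, 46291 and 49188 in SCR and 89605 and 83545 in WT. H2AX, the variant phosphorylated at DNA breaks, was at -0.91 in SCR/WT and was called. H3-3B was at -0.52 in SCR/WT and 0.50 in G2/SCR, neither called. H2AJ was at or near 0 in every library.

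Genes of DNA replication were close between G2 and SCR. Of 30 such genes MCM4, a helicase subunit, was called higher in G2/SCR (0.77), 17 lay above and 13 below 0, and the median was 0.08 against -0.38 for the histone members. RRM2 and TK1, which supply deoxynucleotides, were at 0.42 and 0.45. Against WT, 23 of the 30 were lower in G2 and 26 in SCR, with medians of -0.73 and -0.76. Under the same total these counts were 11 and 10 and the medians -0.54 and -0.48. Of 12 proliferation markers none was called in G2/SCR, all 12 had values above 0, and 7 were lower in SCR than in WT as deposited. The summed counts of the long histone entries were thus higher in SCR than in WT where the DNA replication genes were lower. Those of the compact entries were lower in SCR as well, at a ratio of 0.726 as deposited. Without H1-2 and under the same total that ratio was 1.08.

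**Figure D4:**
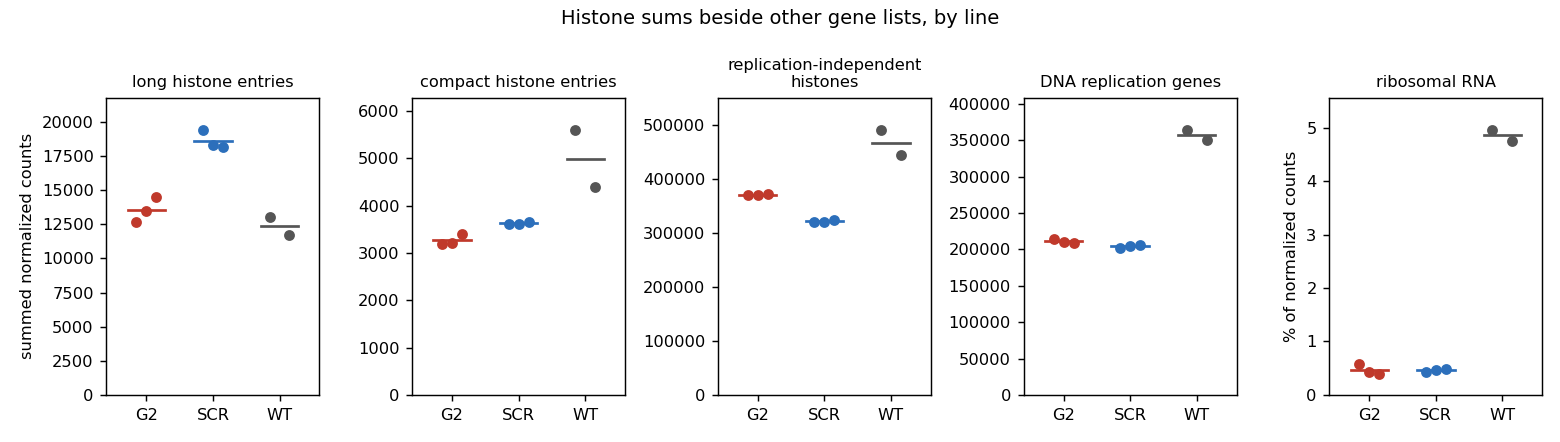
Summed normalized counts (vertical axes, from 0) of the long and compact histone entries, 14 replication-independent histone genes and 30 DNA replication genes, and the percent of counts from ribosomal RNA, in the G2, SCR and WT libraries, with 1 point per library and a bar at the line's mean. Long entries are highest in SCR, whereas the other 4 measures are highest in both WT libraries.

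A few genes that GENCODE names as members of these families carry other symbols in the table and fell outside the rule. H2AW had 658, 887 and 941 in G2, 1694, 1586 and 1849 in SCR and 1895 and 1396 in WT, and was called lower in G2/SCR (-1.06) and in G2/WT (-0.99). H2BU1, its neighbour on chromosome 1, was called lower in G2/SCR (-0.85), and H4-16 on chromosome 12 was at -0.65 and not called. H2AW was thus lower in both G2 comparisons. Among the members this was so for H2BC7 alone, whose calls were lost with some libraries left out.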

How the data were processed

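RNA of 8 libraries from SH-SY5Y lines (G2, 3; SCR, 3; WT, 2) was prepared with a stranded mRNA kit and sequenced as paired 75-base reads. The authors mapped reads to hg38 with STAR 2.7.5a, counted them with featureCounts (Subread 1.5.0) on FAST DB genes and deposited DESeq2-normalized counts, a signal per gene and library that is not scaled to length or logged. Replicates were not pooled. No column was left unassigned, and columns of the authors' own comparisons (fold changes, p-values) were not used. Libraries were assigned to lines by their labels. They are called biological replicates there, but each line is 1 line, so p-values measure the spread between libraries within lines. That spread was pooled over the lines and moderated by the spread of other genes.

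Whole counts were recovered from the step between values in each of the 8 libraries, where 100% of the values above 0 came out whole. The step of WT replicate 2 was the nearest to 1, at 0.993. Small counts were mostly multiples of 3, so the floor was set at 9 recovered counts, about 3 fragments, and covers counting error only. limma 3.58.1 in R 4.3.3 (eBayes with a trend) was fitted to log2(value + 1) of 18947 genes averaging 10 or more, with a mean per line over all 8 libraries, and tested on simulated data. Alternatives were DESeq2 1.42.0 and edgeR 4.0.16 on recovered counts of G2/SCR, other pseudocounts, filters, thresholds, scalings, a replicate block and each library left out. Reference features came from GENCODE 44 and promoters from RefSeq. The members and gene lists were chosen with earlier results of these data known. The entries named are the 3 with the most counts per class, the 20 with the smallest p in G2/SCR and the 5 in SCR/WT, and others by their range.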

Additional observations from a re-analysis of the deposited data

How the results depend on the processing

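The design allowed for raw or normalized counts, and the limma form was used. In G2/SCR the 6 calls became 2 with a mean of at least 100, 2 at an adjusted p of at most 0.05, 3 at 2 fold or more, and 12 (1 higher, 11 lower) with the libraries scaled to the same total, with or without ribosomal RNA and RNAs without poly(A). DESeq2 gave 5, of which 3 were among the 6, and edgeR 6, of which 5 were. In G2/WT the 8 calls became 4 with a mean of at least 100 and 4 at a fold change of at least 2. In SCR/WT the 18 calls became 11 with a mean of at least 100 and 7 at a fold change of at least 2. Leaving out each library in turn gave 4 to 7 calls in G2/SCR, 7 to 9 in G2/WT and 17 to 20 in SCR/WT. With the replicate number as a replicate block, the calls were 5, 8 and 18, but the numbers did not pair the libraries, since deviations of same-numbered libraries from their line means correlated at -0.03 to 0.04. The eBayes fit without a trend, chosen after the data were seen, gave 5, 9 and 16. The other alternatives (pseudocounts of 0.5 and 5, no filter, TMM factors, only the 2 lines compared) left each count within 1.5 times its value. Fold changes of single named members under these settings stayed on their side of the thresholds in 1411 cases. In 53 they passed them newly, in 65 they no longer did, and no call turned its direction. The 1411 include uncalled values whose sign changed, such as H2AC11 in G2/SCR, at -0.04 in the main fit and 0.05 without SCR replicate 1. With 2 or 3 libraries per line and low counts in most compact entries, small differences were not detectable.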
